A study of Mus musculus with 9 samples.

Results

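The S100 calcium-binding proteins were examined in the liver of mice with thioacetamide (TAA)-induced fibrosis and of mice in which TAA had been withdrawn. The members were the 10 genes S100a1, S100a4, S100a6, S100a8, S100a9, S100a10, S100a11, S100a13, S100a16 and S100g, taken by gene name from the 21873 genes of the expression table. All 10 were found. Male C57BL/6 mice, 8 weeks old at the start, received saline (control group, n = 3), TAA at 200 mg/kg by intraperitoneal injection every 3 days for 8 weeks (TAA group, n = 3), or the same 8 weeks of TAA followed by 8 weeks without it (recovery group, n = 3). Control and TAA livers were taken 72 h after the last injection, so the recovery mice were 8 weeks older at collection, and an age-matched control group was not analysed here. The replicates were separate mice. RNA came from whole liver, in which a change in the number of cells of a type and a change in RNA per cell cannot be told apart.

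S100 proteins are small EF-hand calcium sensors, most of which work as dimers. Inside cells they bind annexins, cytoskeletal proteins and enzymes when calcium rises, and several are released and act on receptors such as RAGE (Ager) and TLR4. S100A8 and S100A9 are abundant in neutrophils and monocytes. S100A4, S100A6 and S100A11 are linked to motile, mesenchymal and ductal cells, and S100A1 is best known from heart and skeletal muscle.

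The family held 17 genes in the table, and the 10 members were those with a mean FPKM (fragments scaled to gene length and to library depth) of at least 0.1 over the 9 libraries. The lowest member was S100a4 (mean 1.32 FPKM), and the first gene outside was S100a14 (0.0462 FPKM). Measured levels therefore chose the members, and the differences between groups were known when they were chosen, so their values are given as a description without a p-value. S100g passed the level filter through the TAA group alone. Of the other 7 genes, S100a2, S100a5 and S100z were listed at 0 in all 9 libraries. S100a3 was above 0 in TAA 2 and TAA 3 (0.0159 and 0.0465), and S100a7a in recovery 2. S100a14 was above 0 in the TAA mice (0.0521, 0.199 and 0.0225) and in recovery 1, and S100b in 4 libraries. None of these 7 was tested.

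All members except S100g lie on chromosome 3 of GRCm38, between 90511034 and 93564643. S100a1 (- strand) and S100a13 (+ strand) stand head to head with 42 bases between them, S100a8 and S100a9 lie 22596 bases apart on opposite strands, and S100a11 and S100a10 follow after a gap of 2824766 bases. S100g is on the X chromosome (162961992 to 162964599, - strand). The reads carried no strand information. The exons of S100a4 overlapped those of the predicted gene Gm42674 on the same strand, and those of the other members overlapped no other gene.

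RefSeq promoter windows (250 bases before to 50 after the start site, GRCm38.p6) were matched for 9 of the 10 members, all but S100a10. Letters from 250 bases before to 10 after the start are printed for the alarmin pair S100a8 and S100a9, for S100a11, whose mean in TAA was 21.4 times that in control, and for S100g, which was near 0 outside the TAA group. The windows are chr3:90668821-90669080 (+ strand) for S100a8, chr3:90695712-90695971 (- strand) for S100a9, chr3:93520246-93520505 (+ strand) for S100a11 and chrX:162964590-162964849 (- strand) for S100g. Capitals mark a TATA box (TATAAA), a GC box (GGGCGG), an AP-1 site (TGANTCA) or a C/EBP site (TTGCNNAA), searched on both strands, and each sequence reads 5′ to 3′ on the strand of its gene.
S100a8: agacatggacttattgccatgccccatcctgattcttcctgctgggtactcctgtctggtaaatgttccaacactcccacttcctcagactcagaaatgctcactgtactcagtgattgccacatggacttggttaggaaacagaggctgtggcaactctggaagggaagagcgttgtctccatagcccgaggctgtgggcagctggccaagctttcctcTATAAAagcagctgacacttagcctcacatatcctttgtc
S100a9: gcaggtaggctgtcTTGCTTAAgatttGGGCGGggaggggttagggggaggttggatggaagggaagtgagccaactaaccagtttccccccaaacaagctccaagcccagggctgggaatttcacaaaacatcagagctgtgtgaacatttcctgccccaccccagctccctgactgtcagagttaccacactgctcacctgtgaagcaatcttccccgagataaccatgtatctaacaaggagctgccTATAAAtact
S100a11: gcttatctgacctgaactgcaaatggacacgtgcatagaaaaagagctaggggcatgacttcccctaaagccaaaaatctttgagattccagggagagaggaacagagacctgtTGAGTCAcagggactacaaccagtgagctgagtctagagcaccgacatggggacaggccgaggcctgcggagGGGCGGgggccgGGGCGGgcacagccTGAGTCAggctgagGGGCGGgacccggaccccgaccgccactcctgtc
S100g: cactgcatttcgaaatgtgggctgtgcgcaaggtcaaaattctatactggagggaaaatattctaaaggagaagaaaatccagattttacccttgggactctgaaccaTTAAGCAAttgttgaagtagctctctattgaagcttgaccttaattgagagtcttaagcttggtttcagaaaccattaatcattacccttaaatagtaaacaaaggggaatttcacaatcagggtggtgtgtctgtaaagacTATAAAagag

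TATAAA was found in 13.6% of all 32841 promoter windows, and in those of 4 members. In S100a4 and S100a8 its first base lay 31 and 30 bases before the annotated start, whereas in S100a9 and S100g it began at the annotated start itself. The S100a11 window held 3 GC boxes and 2 AP-1 sites, the AP-1 sites beginning 136 and 38 bases before the start. A GC box was present in 35.7% and an AP-1 site in 7.81% of all windows. Over its full 300 bases the S100a11 window had 61.67% G + C and 15 CpG, against medians of 52.67% and 7 over all windows. C/EBP matches, present in 10.8% of all windows, occurred in S100a9 at -236 and, on the opposite strand, in S100g at -142. S100a16 had a window at chr3:90537004-90537303 with none of the 4 motifs, and another at chr3:90540896-90541195 with an AP-1 site and a GC box. None of the 4 motifs occurred in S100a1, S100a6 or S100a13. The S100a1 and S100a13 windows share 204 bases. A match is a run of letters only, and no binding was measured.

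Each library was rescaled by 1 median-of-ratios factor, which lowered TAA against control by 0.6381 on the log2 scale. The result is called scaled FPKM. Fold changes are log2 of scaled FPKM + 0.1, which understates changes at low levels. A gene met the criteria at a false discovery rate (FDR) below 0.05 in limma, over 14094 tested genes, with a fold change of at least 2. The estimated depth was 26760000 to 40380000 fragments per library. Control 1 differed from the other controls in several summed marker levels. The endothelial sum was 48.5 scaled FPKM against 86.7 and 84.0, and the stellate cell and fibroblast sum 60.2 against 91.6 and 102. The T cell, B cell and neutrophil sums were lowest in control 1, and the adipocyte sum was 8.48 against 0.981 and 0.565. Its hepatocyte and cholangiocyte sums lay between those of the other controls. In single macrophage genes control 1 differed in both directions. It was high in Gpnmb (22.2 against 0.188 and 0.102 in controls 2 and 3) and Trem2 (7.10 against 0.302 and 0.389). It was low in Csf1r (8.04 against 17.1 and 17.1), Clec4f (13.8 against 32.3 and 36.2) and Timd4 (1.20 against 3.03 and 3.19). The summed level of 10 macrophage markers was 114, 109 and 111 in controls 1 to 3. TAA 3 stood apart through skeletal muscle genes (summed level of 4 markers 28.9, against at most 0.0746 in every other library). The liver label held: the summed level of 7 hepatocyte markers, Alb among them, was 39089 to 43419 in control, 21431 to 28357 in TAA and 46743 to 50081 in recovery.

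In the control liver the family was dominated by S100a10 (78.3 ± 7.43 scaled FPKM, mean ± SD, n = 3) and S100a1 (69.1 ± 7.84), whose ranges overlapped. S100a16 (12.1 ± 0.685) and S100a13 (3.62 ± 0.290) came next, each apart from its neighbours in the order. The means of S100a8, S100a6, S100a4, S100a11 and S100a9 lay between 0.858 and 1.59, and neighbours in that order overlapped. S100g was last. In the TAA liver the order was S100a10 (141 ± 19.6), S100a1 (24.9 ± 4.19) and S100a11 (18.8 ± 1.35), without overlap. S100a8, S100a16, S100a6, S100a9 and S100g followed with means from 4.54 to 10.5 and overlap between neighbours, and S100a13 and S100a4 were lowest and overlapped. In the recovery liver S100a10, S100a1, S100a16 and S100a13 again held the first 4 ranks, S100a13 overlapping S100a11 below it.

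Between TAA and control, 6 of the 10 members met the criteria, 5 higher and 1 lower, against 25% of all genes tested (17% higher and 8.02% lower). The groups did not overlap for 8 members, 6 higher and 2 lower, against 63.6% of all genes (32.6% higher and 31% lower). Between recovery and TAA, 7 members met the criteria, 1 higher and 6 lower, against 21.4% of all genes (7.12% higher and 14.3% lower). The groups did not overlap for 8 members, 2 higher and 6 lower, against 60.3% of all genes (29.4% higher and 31% lower). Between recovery and control no member met the criteria by limma, against 0.993% of all genes (0.582% higher and 0.412% lower), and none was free of overlap, against 30.2% (14.6% higher and 15.6% lower). At an unadjusted p below 0.05 in that comparison there were 2 members and 23.0% of all genes. The median log2 change over the members was 1.90, -2.005 and 0.20 in the 3 comparisons, beside 0.02, -0.01 and 0.01 over all tested genes. S100g enters the counts and, by its rank, the medians of both comparisons with TAA. The comparisons share libraries, and the members were chosen on these contrasts, so nothing is read from these counts.

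**Figure D1:**
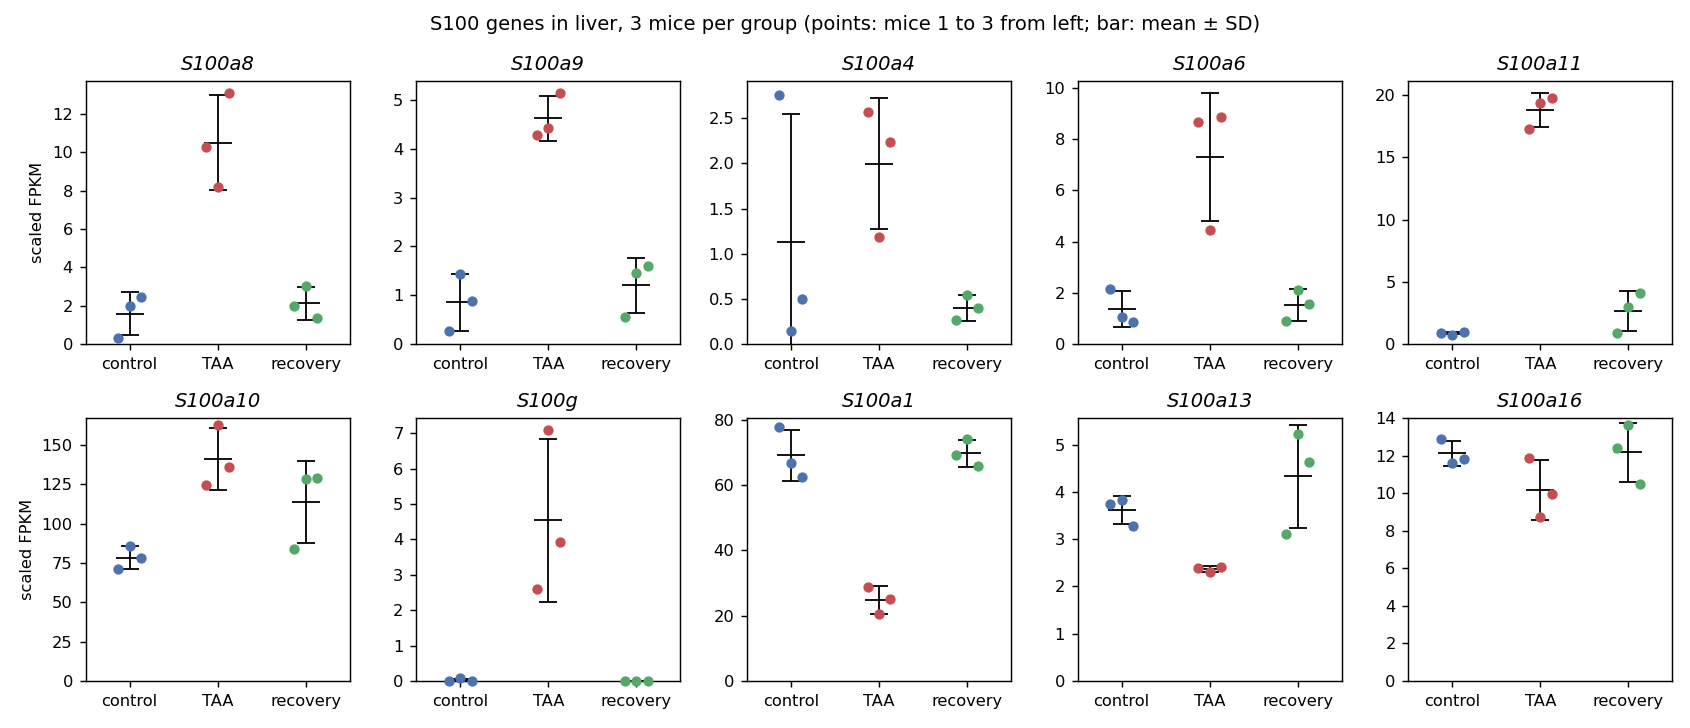
Scaled FPKM (vertical axes, from 0) of the 10 S100 genes in the control, TAA and recovery groups; points are mice 1 to 3 from left to right and bars the mean ± SD (n = 3), with the lower end for S100a4 in the control group cut at 0. S100a8, S100a9, S100a6, S100a11 and S100g are high in the TAA mice, S100a1 and S100a13 are low there, and S100a4 is high in control 1.

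S100a8 and S100a9 form calprotectin, the heterodimer that myeloid cells carry in their cytoplasm and release at sites of inflammation. S100a8 was at 0.311, 1.98 and 2.48 scaled FPKM in the control mice, 10.3, 8.18 and 13.1 in the TAA mice and 2.005, 3.01 and 1.34 in the recovery mice. Every TAA mouse was above every control and recovery mouse, and the other groups overlapped. The log2 change was 2.999 ± 0.64 (SE) from control to TAA and -2.30 ± 0.29 from TAA to recovery.

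S100a9 was at 0.261, 1.43 and 0.879 scaled FPKM in control, 4.29, 4.43 and 5.14 in TAA, and 0.551, 1.45 and 1.60 in recovery. The TAA mice again stood apart from the others, with log2 changes of 2.53 ± 0.47 (SE) and -1.97 ± 0.34. Control 1 was the lowest library for both genes, and without it the change to TAA was 2.17 for S100a8 and 1.94 for S100a9. Within a library the ratio of S100a8 to S100a9 was 1.19 to 2.82 in control, 1.85 to 2.54 in TAA and 0.838 to 3.64 in recovery, so the groups overlapped. Relative to control, the recovery mean kept 5.93% of the TAA difference for S100a8 and 9.16% for S100a9.

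Several neutrophil markers were also highest in TAA. The summed level of 10 neutrophil genes was 0.745 to 1.42 scaled FPKM in control, 4.31 to 6.38 in TAA and 1.10 to 2.05 in recovery. Csf3r was at 0.492, 2.13 and 0.571 and Retnlg at 0.476, 1.27 and 0.612 in the group means, both higher in TAA than in control by the criteria (17% of all genes were), though Retnlg did not meet them from TAA to recovery. Camp, Ltf, Mmp8 and Cxcr2 passed the level filter through the TAA group, so their calls are not counted. Elane had means of 0.0719, 0.0909 and 0.130, with overlap of all groups, and was not tested, nor were Mpo and Ngp. Ly6g, the defining surface marker, was at 0 in every control and recovery mouse and at 0.0204, 0.104 and 0.0422 in the TAA mice. The part of neutrophil number in the S100a8 and S100a9 values was not tested.

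S100a4 binds non-muscle myosin and marks subsets of fibroblasts and inflammatory macrophages. It was at 2.76, 0.142 and 0.496 scaled FPKM in control, 2.57, 1.18 and 2.24 in TAA, and 0.262, 0.545 and 0.398 in recovery. Control 1 exceeded every TAA mouse, while controls 2 and 3 lay below all of them. The control to TAA change of 1.43 ± 0.81 (SE) log2 did not meet the criteria. It met them without control 1, at 2.40, and on FPKM as deposited, at 1.999, but was 0.62 without control 2 and 0.66 with an added constant of 1. The TAA to recovery change was -2.04 ± 0.33, with no overlap. Control 1 was also the library with high Gpnmb and Trem2, genes of lipid-laden and scar-associated macrophages, but with low Csf1r, Clec4f and Timd4. The part of macrophages in its S100a4 value was not tested. The estimated reads behind S100a4 were few in the low libraries, 2.52 fragments in control 2.

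S100a6, or calcyclin, binds the ubiquitin ligase adaptor Cacybp and is typical of proliferating and mesenchymal cells. It was at 2.16, 1.08 and 0.856 scaled FPKM in control, 8.64, 4.44 and 8.85 in TAA, and 0.890, 2.13 and 1.56 in recovery. All TAA mice were above all others, TAA 2 being the lowest of them. Log2 changes were 2.37 ± 0.38 (SE) and -2.20 ± 0.35, and 2.70% of the TAA difference was left at recovery. The ratio of S100a6 to S100a4 within a library was 3.36 to 3.95 in TAA and 3.39 to 3.93 in recovery, but 0.784, 7.59 and 1.72 in control.

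S100a11 partners annexin A1 and is strong in ductal and proliferating epithelium. It was at 0.895, 0.775 and 0.963 scaled FPKM in control and at 17.2, 19.4 and 19.7 in TAA, a ratio of means of 21.4. The log2 change was 4.27 ± 0.12 (SE), with little spread in either group. The control values rest on few reads, an estimated 10.1, 12 and 14.1 fragments, against 456, 506 and 533 in TAA. Recovery 1 had an estimated 14.8. The recovery mice were at 0.930, 3.01 and 4.10, all below TAA (log2 -2.99 ± 0.45). Recovery 1 was within the control range and recovery 2 and 3 were above it. Expressed as a share of the TAA difference, 0.293%, 11.9% and 18.0% remained in the 3 recovery mice. The recovery to control change was 1.29 ± 0.50 and did not meet the criteria. Without recovery 1 it was 1.89 and met them.

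Stellate cell and ductal markers, and some macrophage markers, were also higher in TAA. The summed level of 7 cholangiocyte markers, Krt19 and Epcam among them, was 15.7 to 21.0 scaled FPKM in control, 303 to 447 in TAA and 28.0 to 38.6 in recovery. That of 9 stellate cell and fibroblast markers was 60.2 to 102, 287 to 403 and 88.6 to 125, and that of 10 macrophage markers 109 to 114, 170 to 238 and 114 to 155, in the same order. Of the markers tested, 6 of 6, 8 of 9 and 4 of 10 met the criteria as higher in TAA, against 17% of all genes. Among the cholangiocyte markers, Cldn4 and Krt7 were low in control, with means of 0.0211 and 0.105 scaled FPKM beside the filter limit of 0.1. Nothing is therefore read from the 6 of 6. Among macrophage markers the sum was carried by Lyz2 (45.4 to 124), while Clec4f and Timd4 of resident Kupffer cells had lower means in TAA (27.4 to 21.8 and 2.48 to 1.52) and did not meet the criteria. Their part in the S100a4, S100a6, S100a10 and S100a11 values was not tested.

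S100a10 forms a constitutive, calcium-independent complex with annexin A2 at the plasma membrane and binds plasminogen there. It was the highest member in every library except control 1, at 70.8, 85.7 and 78.3 scaled FPKM in control, 124, 163 and 136 in TAA, and 83.7, 128 and 129 in recovery. Each TAA mouse was above each control mouse. The change of 0.84 ± 0.12 (SE) log2 was below the 2-fold limit, but it reached 1.48 and met the criteria on FPKM as deposited. Recovery 1 was within the control range, whereas recovery 2 and 3 were within the TAA range. Accordingly 8.66%, 79.8% and 80.5% of the TAA difference remained in these mice. The recovery group was 0.51 ± 0.18 log2 above control and 0.33 ± 0.19 log2 below TAA, and met the criteria in neither comparison. Recovery 1 was the lowest recovery library for 6 of the 9 members other than S100g.

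S100g is the intestinal calbindin, a vitamin D-dependent calcium carrier of gut, kidney and uterus. It was listed at 0 in controls 1 and 3 and in all 3 recovery mice, and at 0.0682 scaled FPKM in control 2, which corresponds to an estimated 0.995 fragments. The TAA mice were at 2.60, 7.08 and 3.93, or an estimated 64.5, 174 and 99.6 fragments. S100g was thus readily detected in every TAA mouse and in none of the others beyond about that single fragment. It entered the fit through the TAA group alone, so its calls are no support for a difference, and its fold change, which rests on the added constant, is not given.

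S100a1 regulates calcium pumps and release channels in muscle. It was at 77.8, 66.9 and 62.6 scaled FPKM in control, 28.9, 20.5 and 25.2 in TAA, and 69.3, 74.1 and 65.8 in recovery. This was the only member to meet the criteria as lower in TAA, by 2.78-fold in the group means (log2 -1.48 ± 0.14, SE), and recovery differed from control by 0.02 ± 0.10. On FPKM as deposited the change to TAA was -0.84 and did not reach 2-fold. The hepatocyte marker sum given above, most of it Alb, was likewise lower in TAA after scaling. Of its 7 genes 4 met the criteria as lower, against 8.02% of all genes, and Alb did not. On FPKM as deposited Alb was at 23017 to 25978 in control and 23924 to 29976 in TAA. The part of hepatocyte RNA in the S100a1 value was not tested. TAA 3, the library with muscle RNA, was between the other TAA mice.

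S100a13, which assists the export of Fgf1, was at 3.75, 3.82 and 3.29 scaled FPKM in control, 2.40, 2.31 and 2.41 in TAA, and 3.12, 5.23 and 4.64 in recovery. The TAA mice were the lowest and lay close together, but the change of -0.59 ± 0.12 (SE) log2 was under 2-fold, and it was 0.03 on FPKM as deposited. The TAA to recovery change was 0.81 ± 0.19. It reached 1.02 and met the criteria without recovery 1. S100a16, a widely expressed member, was at 12.9, 11.6 and 11.8 in control, 11.9, 8.72 and 9.94 in TAA, and 12.4, 13.6 and 10.5 in recovery. The 3 groups overlapped, and its change from control to TAA of -0.26 ± 0.13 turned to 0.37 on FPKM as deposited.

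**Figure D2:**
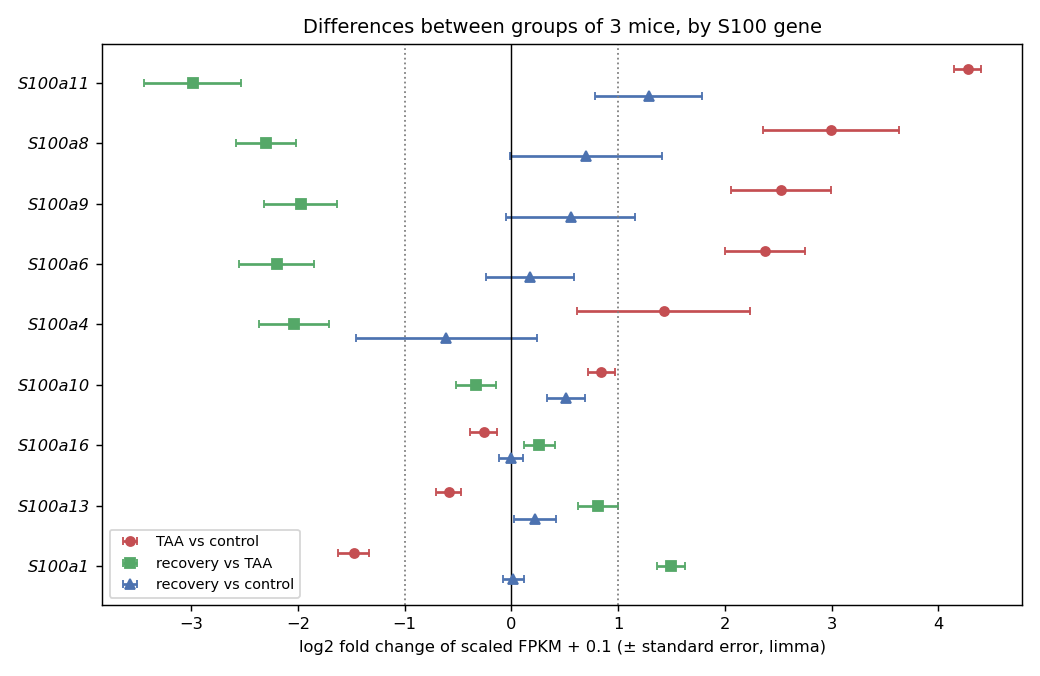
Log2 fold change (horizontal axis, scaled FPKM + 0.1) with its standard error for 9 S100 genes in the 3 comparisons; dotted lines mark a 2-fold change, and S100g is left out because 2 of its groups were at or near 0. S100a11, S100a8, S100a9 and S100a6 lie beyond the lines in opposite directions on TAA and on recovery, S100a1 runs the other way, and the recovery vs control values run from -0.61 for S100a4 to 1.29 for S100a11.

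The summed scaled FPKM of the 10 members was 169 ± 6.34 (SD, n = 3) in control, 226 ± 12.9 in TAA and 208 ± 30.6 in recovery. The make-up of this pool was taken within each library, where the scaling between libraries plays no part. S100a1 made up 40.9 ± 3.86% of the sum in control, 11.1 ± 2.48% in TAA and 34.0 ± 5.26% in recovery. S100a10 made up 46.4 ± 4.44%, 62.2 ± 5.21% and 54.2 ± 5.38%. The share of S100a11 was 0.521%, 8.31% and 1.24%, and that of S100a8 0.953%, 4.67% and 1.02%. S100a16 went from 7.18% to 4.54% while its own scaled level overlapped between groups. The ratio of S100a10 to S100a1 was 0.911 to 1.28 in control, 4.31 to 7.94 in TAA and 1.21 to 1.96 in recovery.

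**Figure D3:**
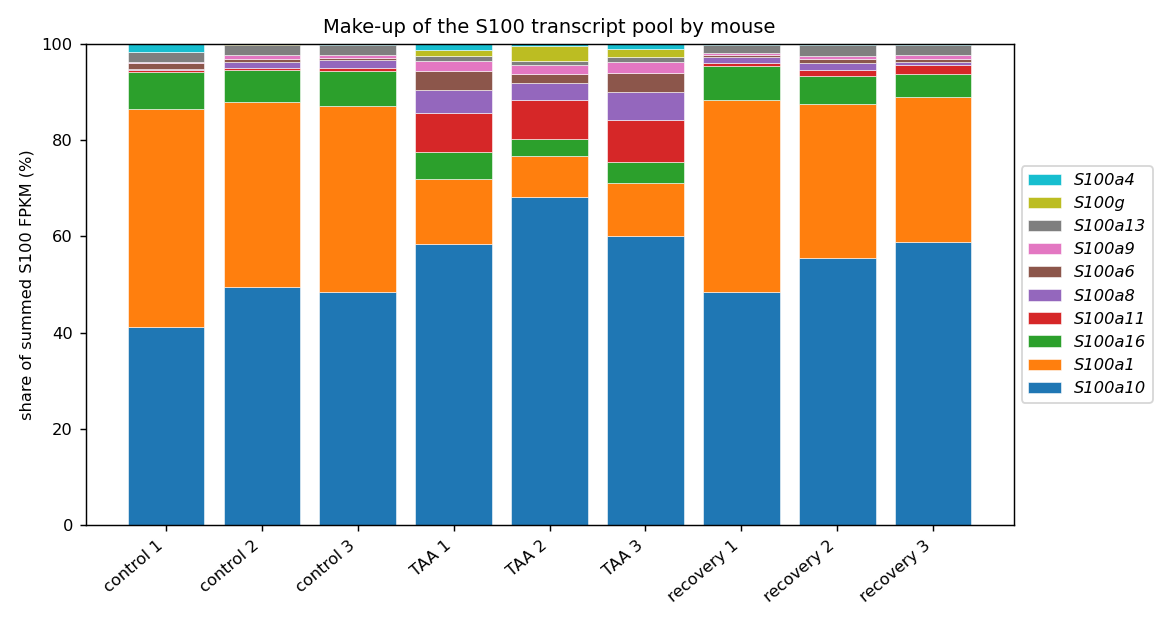
Share of the summed FPKM of the 10 S100 genes (vertical axis, %) taken by each gene in each of the 9 livers. S100a10 and S100a1 together fill most of every bar; the S100a1 band narrows from 38.6 to 45.3% in the control mice to 8.58 to 13.5% in the TAA mice, and bands of S100a11, S100a8, S100a6, S100a9 and S100g widen there.

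Genes that S100 proteins bind or signal through were then tested. Of 18 partner genes, 7 rose and 2 fell from control to TAA, 2 rose and 8 fell from TAA to recovery, and 1 was higher in recovery than in control (limma with Benjamini-Hochberg adjustment). Over all genes 17% rose and 8.02% fell, then 7.12% rose and 14.3% fell, and 0.582% were higher in recovery than in control. These lists were drawn up with earlier results of the data known, so their p-values, adjusted over all genes, are no independent evidence. The medians over the list were 0.52, -0.56 and 0.00 log2. Anxa2, the partner of S100a10, rose from 6.19, 3.25 and 3.10 scaled FPKM in control to 56.2, 85.5 and 79.1 in TAA (log2 4.16 ± 0.28 SE, adjusted p = 2.61e-05 in limma). It fell to 3.69, 3.93 and 6.39 in recovery (log2 -3.97 ± 0.23, adjusted p = 1.68e-05). In contrast to S100a10, no recovery mouse was near the TAA range.

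The ratio of S100a10 to Anxa2 FPKM within a library was 11.4, 26.4 and 25.3 in control, 2.22, 1.90 and 1.72 in TAA, and 22.7, 32.6 and 20.2 in recovery. Transcripts of S100a10 thus exceeded those of Anxa2 per length in all 9 livers, and by least in TAA. Anxa1, the partner of S100a11, rose from 2.62 ± 0.432 (SD, n = 3) to 7.50 ± 1.57 scaled FPKM and returned to 2.58 ± 0.311 (log2 1.47 and -1.49, adjusted p = 0.000551 and 0.000357 in limma). The S100a11 to Anxa1 ratio was 0.303 to 0.364 in control, 2.16 to 3.38 in TAA and 0.419 to 1.49 in recovery. Recovery mice were thus above control mice in this ratio, without overlap. Recovery 1, at 0.419, was close to the control maximum of 0.364, and its S100a11 value rests on an estimated 14.8 fragments. Anxa5 also rose and fell (log2 1.94 and -1.53).

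**Figure D4:**
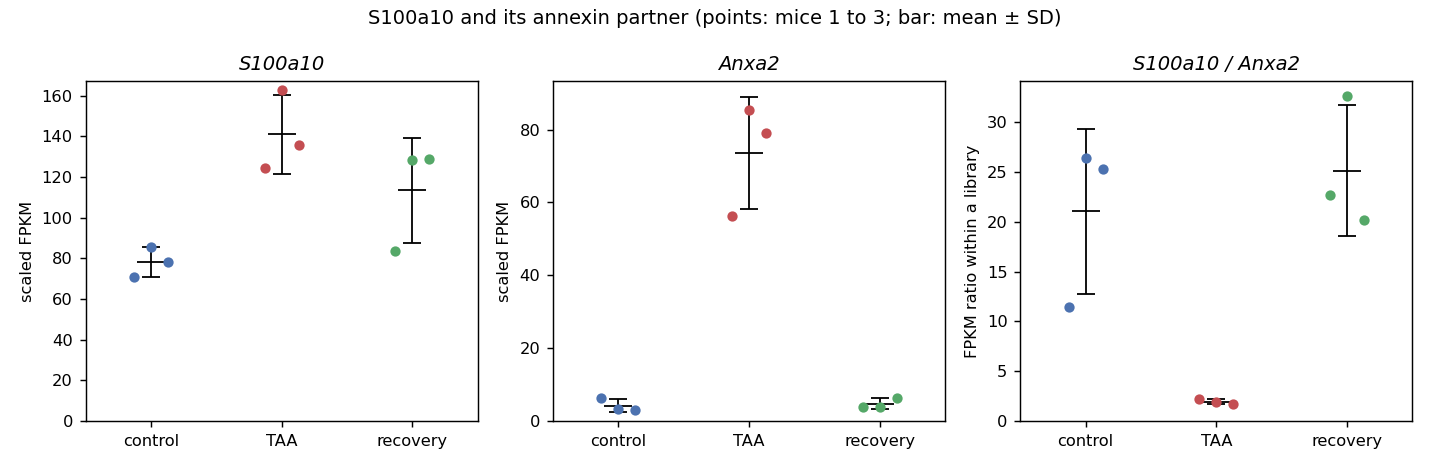
Scaled FPKM of S100a10 (left) and Anxa2 (middle) and the ratio of their FPKM within a library (right) in the control, TAA and recovery groups; points are mice 1 to 3 and bars the mean ± SD (n = 3). Anxa2 is high in the TAA mice alone, S100a10 stays at 128 and 129 in recovery 2 and 3, and the ratio is lowest in TAA.

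The plasminogen system, which the S100a10 and annexin A2 complex assembles on the cell surface, moved in several members. Plat, the tissue activator, rose from 0.201 ± 0.0576 (SD, n = 3) to 9.49 ± 2.12 scaled FPKM and stood at 0.649 ± 0.160 in recovery (log2 4.99 and -3.67, adjusted p = 5.61e-06 and 1.63e-05 in limma). It was the partner gene that met the criteria between recovery and control (log2 1.31 ± 0.23 SE, adjusted p = 0.0439), higher in 3 of 3 mice, and this call was lost without any 1 of the 6 libraries. Plaur, the urokinase receptor, rose and fell (log2 2.36 and -1.89), and so did the urokinase gene Plau, by 1.01 and -1.23. Plg itself, the hepatocyte precursor, fell from 615 ± 41.1 to 241 ± 22.1 and returned to 620 ± 49.8. Its log2 changes were -1.35 and 1.36, but they were -0.72 and 0.80 on FPKM as deposited and -0.07 and 0.26 with quantile normalization, and met the criteria under neither scaling.

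Myh9, the myosin bound by S100A4, rose from 27.5 ± 0.985 (SD, n = 3) to 72.3 ± 2.17 scaled FPKM and fell to 31.6 ± 2.47 (log2 1.39 and -1.20, adjusted p = 1.21e-05 and 4.05e-05 in limma). Ahnak, a scaffold of the S100a10 and annexin A2 complex, was 0.83 log2 higher in TAA, under 2-fold, and fell by 1.24 at recovery, a call lost without recovery 3 (log2 -0.99). Fgf1, the growth factor exported with S100A13, fell from 46.4 ± 3.98 to 7.15 ± 1.10 and returned to 51.6 ± 6.75 (log2 -2.69 and 2.84). Cacybp, the partner of S100a6, was at 10.99, 10.98 and 10.92 in the group means and met the criteria in no comparison. Neither did the other 7 partners: Anxa6, Anxa11, Sugt1, Atp2a2, Ryr1, Capn2 and Ppp5c.

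Of 10 receptor and signalling genes, 9 were tested. Cd14, the co-receptor of TLR4, was the only one to rise in TAA (log2 1.73 ± 0.48 SE, adjusted p = 0.018 in limma), and it fell at recovery by 1.08 (adjusted p = 0.00303). Control 1 was at 4.96 scaled FPKM against 1.33 and 1.20 in the other controls, and the call in TAA was lost on leaving out TAA 2, TAA 3, control 2 or control 3 (adjusted p 0.0542 to 0.0649). Tlr4 was at 1.48, 2.85 and 1.94 scaled FPKM in the group means and met the criteria in no comparison. Tnf fell from TAA to recovery (log2 -1.29, adjusted p = 0.00304). Its means were low, at 0.378 and 0.0979 scaled FPKM, near the added constant of 0.1. The smallest Tnf change over the settings was -0.33. Il1b rose instead (log2 1.41, adjusted p = 0.00338), being at 1.52 to 1.69 in TAA and 2.75, 5.05 and 6.12 in recovery. On FPKM as deposited the Il1b change was 0.87 and met the criteria no longer. Control 1 was also high in Il1b, at 4.81 against 1.02 and 0.796. Ager, which encodes RAGE, was below the level filter, with means of 0.0272, 0.124 and 0.0267 scaled FPKM. Ly96, Myd88, Bsg, Cd36 and Nlrp3 did not meet the criteria.

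Beside S100g, 12 calcium-handling genes were examined, of which 6 were tested. Calm3, a calmodulin gene, rose from 13.5 ± 1.01 (SD, n = 3) to 29.6 ± 3.22 scaled FPKM and fell to 14.5 ± 1.13 (log2 1.13 and -1.03, adjusted p = 0.000128 and 0.000213 in limma). Trpv5, an epithelial calcium channel, and Calb2 were listed at 0 in all 9 libraries. Vdr, Cyp24a1, Trpv6 and Calb1, genes of the vitamin D and epithelial calcium route to which S100g belongs, were below the level filter. Pvalb, a muscle calcium buffer, was above 0 in TAA 3 alone (2.53). Calm2, Atp2b1 and Slc8a1 met the criteria in no comparison.

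The neighbourhood of the chromosome 3 members, extended by 500 kb on both sides, held 88 genes outside the family, of which 20 were tested. In TAA, 3 of these rose and 1 fell against control, against 17% and 8.02% of all genes. Creb3l4 and Slc27a3 rose by 1.11 and 1.17 log2 and Crtc2 fell by 1.11. Creb3l4 had means of 0.111, 0.342 and 0.0982 scaled FPKM in control, TAA and recovery, so outside TAA it was near the filter limit of 0.1. Nothing is read from the count of genes that rose, since it includes Creb3l4 and Sprr1a. Sprr1a, a cornified envelope gene between S100a9 and S100a11, was at 12.4 ± 6.53 scaled FPKM (SD, n = 3) in TAA and listed at 0 in the control mice, so it passed the level filter through TAA alone. From TAA to recovery Creb3l4 and Slc27a3 fell, by 1.15 and 1.03, and Sprr1a was again listed at 0. The median over the 20 was -0.11 and 0.15 log2 in these comparisons.

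The profiles of all 11100 genes with a mean of at least 1 FPKM were compared with each member over the 9 libraries, as the root mean square (RMS) difference of log2 values centred on the control mean. Closest to S100a1 were Ttc36 (RMS 0.0845), Apoh (0.0886) and Asgr2 (0.0900). Nearest to S100a11 were the cell cycle genes Ccna2 (0.345) and Mki67 (0.379), then Tspan8 (0.405). For S100a4 these were Capg (0.483), Ptafr and Cdc25b, and for S100a6 Pf4 (0.281), Ms4a7 and Hist1h1d. Cyp4f18 was first for both S100a8 (0.480) and S100a9 (0.280), and S100a9 ranked 10 among the genes nearest to S100a8, but S100a8 only 85 among those nearest to S100a9. Fam98b (0.107) was nearest to S100a10, Dnajc19 (0.1003) to S100a13 and Trp53bp2 (0.0864) to S100a16. Krt20 (0.402), Cyp1a1 (0.478) and Eda2r (0.550) were nearest to S100g. Ccna2, Mki67 and Krt20 reached the mean of 1 FPKM through the TAA group. Their control means were 0.161, 0.144 and 0 scaled FPKM, and their recovery means 0.596, 0.584 and 0.0190. Cyp4f18, Ptafr, Cdc25b, Pf4, Ms4a7, Cyp1a1 and Eda2r likewise had control and recovery means below 1. The likeness of such genes to members high in TAA is therefore partly set by that limit. These distances are descriptions over 9 libraries that share the same group differences.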

How the data were processed

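Liver RNA of 9 mice was sequenced by the authors as 150 bp paired-end, non-stranded libraries, mapped to mm10 with HISAT2 (version 2.2.1) and counted per gene with featureCounts (version 1.5.0-p3). The deposited values were FPKM, computed by the authors. Here each library was rescaled by its median of ratios, taken on the 14005 genes detected in every library. The factors were 0.827 to 0.878 in control, 1.29 to 1.38 in TAA and 0.893 to 0.907 in recovery. Genes with a mean of at least 0.1 FPKM were tested on log2(scaled FPKM + 0.1) with limma 3.58.1 (R 4.3.3; lmFit, eBayes with trend), 6 libraries per comparison, Benjamini-Hochberg adjustment, and calls at FDR below 0.05 with at least 2-fold change. The procedure was tested on simulated data. Fragment depth was inferred from the step size of low FPKM. Only 52.9 to 62.3% of low values were whole reads within 0.05, where 10% arise by chance, so no count test was run.

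Members, partner, receptor, calcium and marker lists were chosen with earlier results of these data known. Named genes were all members, the rest of the family, list genes that met the criteria or were at 0 (the other list genes are named only to account for the lists), chromosome 3 neighbours, and the 3 genes nearest to each member. Promoters came from RefSeq (GRCm38.p6) and gene structure from GENCODE, in which 92.66% of the listed loci were identical. Alternatives were other added constants, filters and scalings, all libraries in one fit, no trend, a replicate block, FDR alone, and leaving out each library. The small RNA libraries of the study were not used here. A gene of the calcium list is not reported here.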

Additional observations from a re-analysis of the deposited data

How the results depend on the processing

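The members had 150 recomputed log2 changes in each comparison. Of these, 2 changed sign between TAA and control (S100a13 and S100a16) and 1 between recovery and TAA (S100a16). Between recovery and control 8 changed sign (S100a1, S100a4, S100a6, S100a8 and S100a9), not counting S100a16. Its change there was -0.0002, and on leaving out single libraries it ran from -0.085 to 0.103. No sign change was in a value that met the criteria. S100a6, S100a8, S100a9 and S100a11 met the criteria in 15 of 15 alternative settings in both comparisons with TAA. Leaving out single libraries gave 6 to 7 members and 8 to 12 partner and receptor genes between TAA and control, 7 to 8 and 12 to 13 between recovery and TAA, and 0 to 1 and 0 to 0 between recovery and control, the 1 member being S100a11 without recovery 1. With FDR alone 18 partner and receptor genes passed between TAA and control, against 10 with the fold limit. Between recovery and control the 1 such gene, Plat, became 0 with an added constant of 0.01 or 1, no filter, quantile normalization, no trend or a replicate block. On FPKM as deposited, 7 members were higher and 0 lower in TAA, and the share of higher calls among all calls went from 67.9% to 91.2% (53.1% with quantile normalization), and between recovery and TAA 6 members were lower and 0 higher. With quantile normalization S100a10 met the criteria in both comparisons with TAA (log2 1.62 and -1.08) and S100a13 between recovery and TAA (1.03). Same-numbered mice were not paired: their deviations from group means correlated at -0.07 to 0.125, and the replicate block left the members at 6, 7 and 0. The fits without 1 library assume that a group of 2 varies like the others. Levels under about 1 scaled FPKM rest on few fragments. Partner, receptor and calcium calls lost in some of 16 settings were Plau (kept in 11 for TAA and 14 for recovery), Plg (14 and 14), Cd14 (12 and 13), and Calm3 (13), Tnf (13 of 15), Il1b (14) and Ahnak (15) from TAA to recovery.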
